A study of Mus musculus with 19 samples.

Results

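The Ikaros family of transcription factors was followed through mouse thymocyte development by the 4 genes named Ikzf1, Ikzf2, Ikzf3 and Ikzf4 in the gene expression tables, out of 28692 genes measured. They were taken by name, and each was described in every genotype, developmental stage and cell cluster. CITE-seq, which counts RNA molecules and bound antibodies in the same single cell, was run on thymi of 17 female mice aged 4 to 8 weeks in 19 lanes. Of these, 5 mice were wild-type C57BL/6. The CD4-fated mice, 2 of each genotype and 6 in all, were AND TCR transgenics on a Rag1-/- background, OT-II TCR transgenics and MHCI-/- (B2m-/-) mice. The 6 CD8-fated mice were F5 TCR transgenics on a Rag1-/- background, OT-I TCR transgenics and MHCII-/- (H2-Ab1-/-) mice, again 2 of each. A TCR transgenic (TCRtg) mouse makes thymocytes with 1 main antigen receptor, and in the AND and F5 mice the missing Rag1 leaves no other receptor, whereas OT-I and OT-II cells can still rearrange their own. MHCI-/- and MHCII-/- thymocytes have a diverse receptor repertoire but lack the class I or the class II ligands of the receptor. Thymocytes of the MHC-deficient mice and of wild-type mice r1, r2 and r3 were sorted as TCRβ+CD5+, and those of all other mice, wild-type r4 and r5 included, were not sorted.

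Ikaros family proteins bind DNA through zinc fingers near one end of the protein and pair with each other through zinc fingers at the other end, and they bring chromatin complexes such as NuRD and other corepressors to their targets. Ikzf1 encodes Ikaros, needed for lymphocyte development and a brake on proliferation in early thymocytes. Ikzf2 encodes Helios, found mainly in the T lineage and known as a marker of strongly signaled thymocytes and of regulatory T cells (Treg cells). Ikzf3 encodes Aiolos, studied most in B cells and mature lymphocytes, and Ikzf4 encodes Eos, a partner of FOXP3 in Treg cells. In the GRCm38 build, Ikzf1 (ENSMUSG00000018654) lies on the plus strand at chr11:11685003-11772926, and Ikzf3 (ENSMUSG00000018168) on the minus strand at chr11:98464902-98546031. Ikzf2 (ENSMUSG00000025997) lies on the minus strand at chr1:69531214-69687245 and Ikzf4 (ENSMUSG00000002578) on the minus strand at chr10:128630843-128645991. Predicted genes overlap them on the same strand at Ikzf2 (Gm29112 and Gm28112) and at Ikzf3 (Gm25106), so that reads there are less certain in their gene.

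Lanes held 9893333 to 43303999 RNA unique molecular identifiers (UMIs, each 1 counted molecule), and the median per retained cell ranged from 1519 to 7259. Cells were placed in 8 stages by the antibody counts for CD4, CD8a, TCRβ, CD69 and CD127 alone: DP1 (CD4+CD8+, CD69-CD127-), DP2 (CD4+CD8+, CD69+CD127-), CD4+CD8lo, DP3 (CD4+CD8+, CD69+CD127+), and semimature (SM, CD69+) and mature (Mat, CD69-) CD4 and CD8 cells. UMIs were summed per mouse and stage, and a level is given as CPM, the UMIs of the gene per 1000000 RNA UMIs of that sum. Counting the end of each transcript, CPM was not scaled to length, and levels were compared between stages or mice and not between genes. In the MHCI-/- mice, B2m in DP2 was 22.4 and 25.8 CPM against 227 to 834 CPM in the 15 other mice, whereas H2-Ab1 reached at most 22.3 CPM in DP2 of any mouse, too low in thymocytes to check the MHCII-/- genotype. The sorted and unsorted wild-type mice differed in DP2. There, 6 markers of quiescent DP cells (Rag1 among them) summed to 4870 and 4490 CPM in the unsorted r4 and r5 but to 442, 428 and 478 CPM in r1, r2 and r3. The 6 markers of signaled DP cells (Egr1 among them) summed to 760 and 713 CPM against 3650, 2990 and 3220 CPM. In DP1 of all 5 wild-type mice the signaled DP markers summed to 141 to 913 CPM. The CD69 threshold (log2 scale) was 3.58 in experiment 3, which held r4 and r5, against 4.669 and 4.645 in experiments 1 and 2 of the sorted mice. Sort, experiment and gate threshold cannot be told apart here. The steps into and out of DP2 are therefore given within the sorted and the unsorted mice as well. Of 71355 distinct barcodes, 695 occurred in 2 or more lanes.

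In wild-type mice, the 4 family members followed different courses. Over the 5 mice, Ikzf1, Ikzf2 and Ikzf3 had their highest mean level in DP2, whereas Ikzf4 was near 0 in DP1 and DP2 and highest in CD4 SM and CD4 Mat cells. The unsorted r4 and r5 did not share this peak for Ikzf2 and Ikzf3. In both, Ikzf2 was lower in DP2 than in CD4+CD8lo, DP3 and CD8 SM cells, and Ikzf3 was lower in DP2 than in DP3. Ikzf1 was also compared with cycling-like, Treg-like, NKT-like, γδ T-like and myeloid-like cells left out. It was then lower in DP2 than in DP3 in r4 (336.2 against 361.5 CPM) but not in r5 (368.6 against 346.9 CPM). The span from the lowest to the highest stage mean was 2.02-fold for Ikzf1, 2.36-fold for Ikzf3, 5.31-fold for Ikzf2 and 37-fold for Ikzf4. Ordered by mean, Ikzf1 ran from DP2 (446 ± 127 CPM, SD, n = 5 here and for the stages that follow) through DP3 (336 ± 44.2), CD4+CD8lo (302 ± 14.8), CD4 SM (300 ± 31.7), CD4 Mat (294 ± 27.3), DP1 (280 ± 44.4) and CD8 SM (260 ± 43.6) to CD8 Mat (221 ± 22.5). Ikzf2 ran from DP2 (627 ± 342 CPM) through CD8 SM (456 ± 27), CD4+CD8lo (338 ± 74.4), DP3 (282 ± 78.4), CD8 Mat (221 ± 48.3), CD4 SM (194 ± 59.1) and DP1 (159 ± 80.9) to CD4 Mat (118 ± 70.9). For these genes the ranges of every pair of neighboring stages overlapped. Ikzf3 ran from DP2 (121 ± 20.2 CPM) through CD8 SM (102 ± 10.7), DP3 (97.5 ± 41.1), DP1 (84.8 ± 26.8), CD4+CD8lo (67.9 ± 18.4), CD4 SM (59.6 ± 8.36) and CD8 Mat (54.4 ± 14.3) to CD4 Mat (51.2 ± 14.5), again with overlapping neighbors. Ikzf4 ran from CD4 SM (40.0 ± 7.25 CPM) through CD4 Mat (36.6 ± 7.34), CD8 SM (31.1 ± 6.12), CD4+CD8lo (23.7 ± 9.03), CD8 Mat (15.6 ± 4.55) and DP3 (11.7 ± 2.14) to DP2 (4.55 ± 1.62) and DP1 (1.08 ± 0.714), and DP3, DP2 and DP1 did not overlap. The 5 mice together gave 40 Ikzf4 UMIs in DP1, 59 in DP2 and 20 in DP3, so these levels rest on few molecules.

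**Figure D1:**
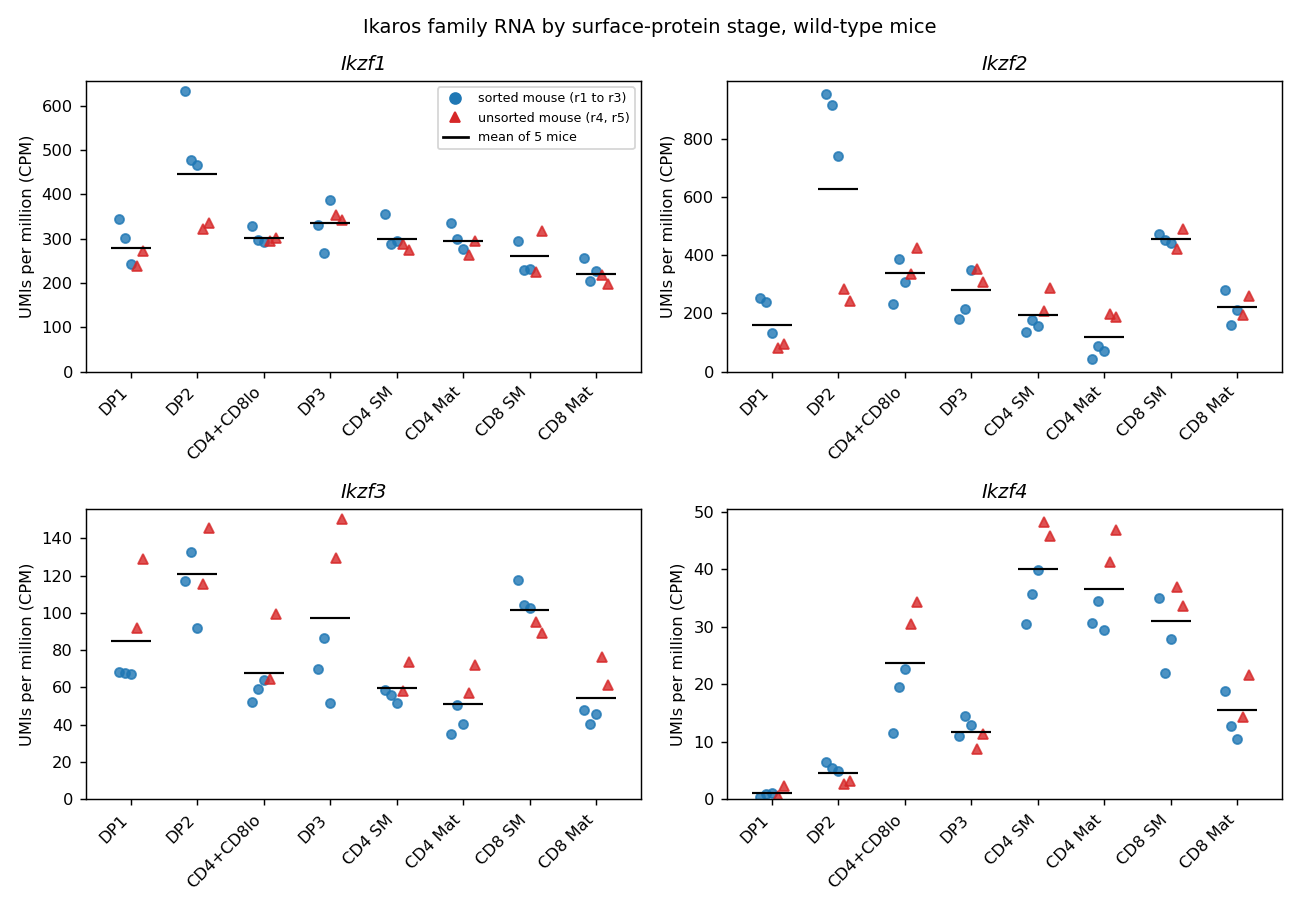
Level of Ikzf1, Ikzf2, Ikzf3 and Ikzf4 (CPM, linear axis from 0, 1 panel per gene) in the 8 antibody-gated stages of the 5 wild-type mice. Each point is 1 mouse, blue circles the sorted r1 to r3 and red triangles the unsorted r4 and r5, and the bar is the mean of 5; in DP2 the 3 sorted mice had 740 to 953 CPM of Ikzf2 and the 2 unsorted mice 242 and 284 CPM.

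The first step, from DP1 to DP2, compares CD69- with CD69+ cells among the CD4+CD8+CD127- cells. In wild-type mice all 4 members rose, where 27.6% of all genes tested changed in either direction. In the 12 lineage-restricted mice Ikzf2 and Ikzf3 were not called, as given below. Ikzf2 had 253, 238, 132, 80.2 and 93.85 CPM in DP1 of wild-type r1 to r5 and 953, 915, 740, 284 and 242 CPM in DP2. Every mouse was higher in DP2, but the unsorted mice reached in DP2 about the level that r1 and r2 had in DP1. The difference was 1.94 ± 0.32 on the log2 scale (fitted value ± SE, 3.83-fold, adjusted p = 1.02e-05, edgeR's quasi-likelihood test with Benjamini-Hochberg adjustment over 9404 genes, as for every stage step). Ikzf1 had 345, 301, 243, 238 and 273 CPM in DP1 and 634, 477, 466, 321 and 335 CPM in DP2, again higher in DP2 in 5 of 5 mice (0.60 ± 0.09, 1.51-fold, adjusted p = 5.68e-06). Ikzf4 rose by 1.66 ± 0.34 (adjusted p = 0.000262), from 0.444, 1.00, 1.07, 0.624 and 2.27 CPM to 6.52, 5.50, 4.90, 2.59 and 3.23 CPM. Ikzf3 rose least, from 68.4, 67.6, 67.0, 92.1 and 129 CPM to 117, 133, 91.9, 115 and 146 CPM (0.46 ± 0.12, adjusted p = 0.0038), with overlapping ranges although each mouse was higher in DP2. The Ikzf3 call was lost without r2 (0.33, adjusted p = 0.11) and in the unsorted mice alone (0.20, adjusted p = 0.286), against 0.74 (adjusted p = 2.39e-06) in the sorted mice. The other 3 members were called in both sets taken alone, at 2.03 in the sorted and 1.56 in the unsorted mice for Ikzf2, 0.76 and 0.31 for Ikzf1 and 2.48 and 1.26 for Ikzf4. In the 12 lineage-restricted mice Ikzf1 (0.30) and Ikzf4 (1.51) were called, but Ikzf2 (0.65 ± 0.28, adjusted p = 0.0588) and Ikzf3 (0.20 ± 0.12, adjusted p = 0.177) were not. Mean Ikzf2 went from 230 CPM in DP1 to 218 CPM in DP2 of AND mice and from 345 to 270 CPM in F5 mice. It went from 171 to 195 CPM in OT-II, 273 to 364 CPM in OT-I, 228 to 898 CPM in MHCI-/- and 160 to 622 CPM in MHCII-/- mice, higher in DP2 in 4 of 6 genotypes. In DP1, markers of cycling cells summed to 1590 to 4620 CPM, and with cells of the cycling-like, Treg-like, NKT-like, γδ T-like and myeloid-like clusters left out the Ikzf3 difference was 0.25 (adjusted p = 0.25).

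From DP2 to CD4+CD8lo cells, the first stage that leaves the DP compartment, the members separated, with 27.8% of all genes called. Ikzf4 rose 7.35-fold, from the DP2 levels above to 11.6, 19.5, 22.6, 30.5 and 34.4 CPM (2.88 ± 0.25, adjusted p = 1.05e-10). Every mouse was higher and the groups did not overlap. The size differed between the sorted mice, at 1.78 (adjusted p = 4.76e-05), and the unsorted mice, at 3.60 (adjusted p = 8.19e-09), and was 1.61 in the 12 lineage-restricted mice. Ikzf3 fell to 52.3, 59.2, 64.0, 64.7 and 99.6 CPM, lower in 5 of 5 mice although the ranges overlapped (-0.75 ± 0.13, adjusted p = 4.12e-05, with -0.91 in the sorted and -0.61 in the unsorted mice, both called). Ikzf1 fell to 328, 296, 292, 294 and 301.5 CPM (-0.41 ± 0.10, adjusted p = 0.00126). The Ikzf1 levels of the 5 mice lay close together in CD4+CD8lo cells, the spread in DP2 being the larger, and the fall was -0.64 (adjusted p = 1.51e-07) in the sorted and -0.03 (adjusted p = 0.873) in the unsorted mice.

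Ikzf2 moved in opposite directions in the sorted and unsorted mice at this step. It went from 953, 915 and 740 CPM to 233.5, 387 and 307 CPM in r1, r2 and r3, and from 284 and 242 CPM to 334 and 426 CPM in r4 and r5. Each sorted mouse was lower and each unsorted mouse higher in CD4+CD8lo cells. Over all 5 mice the difference was -0.73 ± 0.31 and missed the threshold (adjusted p = 0.0829), whereas it was -1.37 ± 0.15 (adjusted p = 1.72e-08) in the sorted mice and 0.60 ± 0.12 (adjusted p = 0.000515) in the unsorted mice. In the pooled fit the call appeared without r4 (-0.95, adjusted p = 0.0267), without r5 (-1.04, adjusted p = 0.0194) and with the other clusters left out (-0.93, adjusted p = 0.0143). Picked after these values were seen, a test of sort by stage gave -1.95 ± 0.24 for the difference between sorted and unsorted mice (adjusted p = 2.57e-07, with 9.25% of all genes called). The DP2 gate of the unsorted mice was the one rich in quiescent DP markers, as given above, and its part in this difference was not tested.

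Along the CD4 branch Ikzf4 rose once more, and the other members were not called at either step over all 5 mice. From CD4+CD8lo to CD4 SM cells, Ikzf4 reached 30.4, 35.7, 40.0, 48.2 and 45.8 CPM and was the only member called (0.96 ± 0.18, 1.94-fold, adjusted p = 0.000128, 13.7% of all genes called). It was higher in CD4 SM in 5 of 5 mice, with ranges that overlapped between mice. Ikzf2 had 136, 177, 158, 209 and 288 CPM in CD4 SM, lower than in CD4+CD8lo cells in 5 of 5 mice, at -0.64 ± 0.31 (adjusted p = 0.187) over all mice, -0.82 (adjusted p = 0.000289) in the sorted and -0.46 (adjusted p = 0.0244) in the unsorted mice. From CD4 SM to CD4 Mat, where 6.57% of genes were called, none of the 4 was called in the edgeR fit (1 had an unadjusted p under 0.05, and DESeq2 called 0). Ikzf2 there had 43.5, 86.7, 71.8, 199 and 187 CPM, lower than in CD4 SM in each mouse (-0.78 ± 0.36, adjusted p = 0.222) and was called in the sorted (-1.06, adjusted p = 0.000195) but not in the unsorted mice alone (-0.25, adjusted p = 0.601).

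The CD4 Mat gate held 67 Treg-like cells of 1120 (5.98%). With them and the cells of the cycling-like, NKT-like, γδ T-like and myeloid-like clusters left out together, so that the part of each cluster was not tested, Ikzf2 in CD4 Mat was 13.8, 25.8, 25.8, 27.4 and 95.0 CPM. Apart from the last mouse, r5, these values were below 28 CPM, and the fall from CD4 SM became -2.53 ± 0.43 (adjusted p = 5.64e-05). Ikzf4 averaged 28.8 CPM in the CD4 Mat cells that remained. The CD4 Mat gate of the wild-type mice summed to 406 to 492 CPM for 6 Treg markers (Foxp3 and Ctla4 among them).

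Along the CD8 branch Ikzf4 was lower in DP3 without a call, then rose to CD8 SM and fell again. Ikzf2 had its highest mean outside DP2 in CD8 SM, which in the unsorted mice lay above their DP2 level. From CD4+CD8lo to DP3, where 1.91% of genes were called, none of the members was called in the edgeR fit (2 had an unadjusted p under 0.05, and DESeq2 called 1). Ikzf3 came closest (0.58 ± 0.17, adjusted p = 0.0672, higher in 4 of 5 mice), at 0.35 (adjusted p = 0.601) in the sorted and 0.74 (adjusted p = 0.0177) in the unsorted mice. Ikzf4 was lower in DP3 in 5 of 5 mice (-1.1 ± 0.35, adjusted p = 0.102), at -0.43 (adjusted p = 0.806) in the sorted and -1.8 (adjusted p = 0.0266) in the unsorted mice. From DP3 to CD8 SM, Ikzf4 rose from 10.95, 14.4, 12.9, 8.73 and 11.3 CPM to 35.05, 21.9, 27.9, 36.9 and 33.6 CPM (1.70 ± 0.35, 3.24-fold, adjusted p = 0.000645, 14.5% of genes called). All CD8 SM values lay above all DP3 values, though the sorted mice alone did not pass (1.23, adjusted p = 0.117). In the 12 lineage-restricted mice the same step was 0.24 ± 0.40 and was not called (adjusted p = 0.807). Ikzf2 went from 182, 216, 349, 353 and 309 CPM to 474, 453.5, 444, 421 and 490.5 CPM, without overlap and higher in 5 of 5 mice. Its pooled difference of 0.89 ± 0.36 missed the threshold (adjusted p = 0.0937), and it was called in the sorted (1.14, adjusted p = 0.00154) and in the unsorted mice (0.69, adjusted p = 0.00238) taken alone. Ikzf3 went up in the 3 sorted mice, from 70.1, 86.5 and 51.7 to 117, 104 and 103 CPM, and down in the unsorted mice, from 129 and 150 to 94.9 and 89.05 CPM, and was not called over all 5 (0.22 ± 0.17, adjusted p = 0.433). The sorted and unsorted mice differed at this step by 1.01 ± 0.29 for Ikzf3 (adjusted p = 0.039, with 3.08% of all genes called, again picked after the values were seen), a call lost without any of the 5 mice.

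From CD8 SM to CD8 Mat, 1.7% of genes were called, Ikzf3 and Ikzf4 among them. Ikzf3 fell to 48.2, 40.6, 46.0, 76.3 and 61.2 CPM, below its CD8 SM level in every mouse and without overlap (-0.83 ± 0.17, adjusted p = 0.00352). Ikzf4 fell to 18.85, 12.7, 10.5, 14.3 and 21.6 CPM, also below CD8 SM in every mouse (-1.03 ± 0.27, adjusted p = 0.037). The Ikzf3 call was lost without r2 (-0.69, adjusted p = 0.11) or r3 (-0.77, adjusted p = 0.0777), and that of Ikzf4 without any of r1 to r4 (adjusted p = 0.067 to 0.251), with DESeq2 (-0.99, adjusted p = 0.0533) and with the other clusters left out (-0.93, adjusted p = 0.121), at about the same size. The fall of Ikzf3 was -1.17 (adjusted p = 9.49e-06) in the sorted mice, -0.33 (adjusted p = 0.688) in the unsorted mice and -0.30 (adjusted p = 0.842) in the 12 lineage-restricted mice. That of Ikzf4 was -1.0 (adjusted p = 0.0454), -1.12 (adjusted p = 0.333) and -0.81 (adjusted p = 0.596) in the same order. Ikzf2 was below its CD8 SM level in every mouse, without overlap, at 281, 162, 211, 194 and 259 CPM. At -1.01 ± 0.34 it was not called over all mice (adjusted p = 0.143), while the sorted (-1.02, adjusted p = 0.000489) and the unsorted mice (-1.05, adjusted p = 0.00193) alone passed.

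Between the end points, 12.3% of genes differed between CD4 Mat and CD8 Mat cells of the wild-type mice. Ikzf4 was 2.54-fold higher in CD4 Mat, at 30.75, 34.5, 29.5, 41.3 and 46.8 CPM, than in CD8 Mat (1.35 ± 0.26, adjusted p = 0.000312), with no overlap. Ikzf1 was 335, 299, 276, 264 and 295 CPM in CD4 Mat and 255.5, 205, 227, 218 and 198 CPM in CD8 Mat, also without overlap (0.41 ± 0.11, 1.33-fold, adjusted p = 0.00742), and this call was lost without r2 (0.37, adjusted p = 0.0586). In the unsorted mice alone neither passed (1.42, adjusted p = 0.0743 for Ikzf4 and 0.40, adjusted p = 0.183 for Ikzf1). Ikzf2 was lower in CD4 Mat in 4 of 5 mice and not called (-1.03 ± 0.38, adjusted p = 0.0723). It was called in the sorted mice (-1.57, adjusted p = 9.57e-07) and without r4 (-1.44, adjusted p = 0.0133), but was -0.11 (adjusted p = 0.827) in the unsorted mice. With the cycling-like, Treg-like, NKT-like, γδ T-like and myeloid-like clusters left out, Ikzf2 was lower in CD4 Mat at -2.94 (adjusted p = 6.77e-06), and the Ikzf4 difference shrank to 0.84 and was no longer called (adjusted p = 0.0833). Ikzf3 did not differ beyond its error (-0.12 ± 0.18, adjusted p = 0.745).

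The lineage-restricted mice ask whether the members differ between CD4-fated and CD8-fated cells of like stage. In DP1, DP2, CD4+CD8lo and DP3 none of the members tested was called, with family of genotypes (AND with F5, OT-II with OT-I, MHCI-/- with MHCII-/-) as a covariate in the edgeR fit. In DP3, only AND r2 (90 cells), OT-II r1 (37) and MHCI-/- r1 (24) of the CD4-fated mice had at least 20 cells. No F5 mouse did, so AND r2 had no partner there and DP3 was compared in few mice. The shares of all genes called were 0.0106% in DP1, 0.303% in DP2, 0.209% in CD4+CD8lo and 0.0% in DP3, where edgeR called 0 genes, 367 had an unadjusted p under 0.05 and DESeq2 called 6. Of the members tested, 0 had an unadjusted p under 0.05 in DP1 and DP2, 2 in CD4+CD8lo and 1 in DP3, and Ikzf4 was too low to be tested in DP1, DP2 and DP3. In DP2, Ikzf2 was 578.5 to 908 CPM in the sorted MHC-deficient mice of both fates and 158.5 to 405 CPM in the 8 TCRtg mice, and it differed between fates by -0.25 ± 0.24 (adjusted p = 0.974). In CD4+CD8lo cells Ikzf2 was 54.2 and 36.7 CPM in AND, 132 and 106.5 CPM in OT-II and 354 and 369 CPM in MHCI-/- mice, against 261 and 290 CPM in OT-I and 553 and 619 CPM in MHCII-/- mice. Within both families that could be compared the CD4-fated mice were lower, the F5 mice having under 20 cells in this gate. The difference, -0.90 ± 0.18, missed the threshold in the edgeR fit (adjusted p = 0.0794) and passed it with DESeq2 (adjusted p = 0.000577) and with the replicate number as a block (-0.88, adjusted p = 0.0438). With the cycling-like, Treg-like, NKT-like, γδ T-like and myeloid-like clusters left out together it was -0.08 ± 0.46 (adjusted p = 1.0). In CD8-fated and CD4-fated mice, NKT-like cells were 5.95% and 0.846% of this gate, γδ T-like cells 1.18% and 0.443%, and Treg-like cells 0.182% and 0.886%. Over mice of all genotypes these clusters averaged 1140, 542 and 1340 CPM of Ikzf2, and the part of each in the difference was not tested.

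At the semimature stage, comparing CD4 SM cells of CD4-fated with CD8 SM cells of CD8-fated mice, 9.49% of genes were called and 3 of the 4 members were among them. Ikzf2 was lower in the CD4 fate, at 26.4 and 31.5 CPM in AND, 136 and 64.7 CPM in OT-II and 258.5 and 240 CPM in MHCI-/- mice. In the CD8 fate it was 235 and 272 CPM in F5, 363 and 375 CPM in OT-I and 275 and 272 CPM in MHCII-/- mice. Only the MHCI-/- mice reached into the range of the CD8-fated mice, and the difference was -1.59 ± 0.35 (0.332-fold, adjusted p = 0.0117). Ikzf3 was also lower, at 25.7 (lowest), 46.8 (median) and 61.6 CPM (highest) in CD4-fated and 66.8, 75.1 and 122 CPM in CD8-fated mice, which did not overlap (-0.70 ± 0.17, adjusted p = 0.0186). Ikzf4 was higher in the CD4 fate, at 6.29, 14.2 and 34.5 CPM against 0, 8.91 and 18.3 CPM, with wide overlap (1.22 ± 0.29, 2.33-fold, adjusted p = 0.0162). The Ikzf4 call was lost without any of the 4 MHC-deficient mice (adjusted p = 0.0564 to 0.0695). Without family as a covariate the calls of Ikzf2 (-1.20, adjusted p = 0.175) and Ikzf4 (1.15, adjusted p = 0.162) were both lost. Ikzf1 differed by 0.24 ± 0.13 and was not called (adjusted p = 0.291).

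The pairs of genotypes did not share the size of the Ikzf2 difference. It was -3.13 on the log2 scale between the means of AND and F5 mice, -1.88 between OT-II and OT-I mice and -0.13 between MHCI-/- and MHCII-/- mice (249 against 273 CPM). A test of family by lineage gave an adjusted p of 0.0175 for Ikzf2 at SM, where 0.272% of all genes were called. It called no member at the other stages, where 0.474% (DP1), 0.743% (DP2), 0.199% (CD4+CD8lo), 0.0% (DP3) and 0.351% (Mat) of genes were called. The Ikzf2 call was lost without any of 7 mice (AND r1 and r2, MHCI-/- r1 and r2, MHCII-/- r1 and r2, F5 r2), the adjusted p ranging from 0.00202 to 0.159 as each of the 12 was left out. For Ikzf4 the corresponding differences were -0.03, 1.23 and 1.57. The 5 γδ T cell markers summed to 354 and 357 CPM in the CD8 SM gate of F5 and 453 and 319 CPM of OT-I mice but to 16.5 and 25.5 CPM of MHCII-/- mice, although F5 mice lack the Rag1 needed for γδ receptors. With the cycling-like, Treg-like, NKT-like, γδ T-like and myeloid-like clusters left out, the family by lineage test of Ikzf2 at SM remained called (adjusted p = 0.00188). The negative selection-like cluster was not left out, and its part was not tested.

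At the mature stage 10.0% of genes were called. Ikzf4 was 3.43-fold higher in CD4 Mat of CD4-fated mice, at 4.33 (lowest), 11.2 (median) and 32.0 CPM (highest), than in CD8 Mat of CD8-fated mice, at 3.36, 5.01 and 6.58 CPM (1.78 ± 0.27, adjusted p = 0.000708). Only AND r2 lay within the CD8-fated range. Ikzf3 was lower in the CD4 fate, between 22.7 and 48.0 CPM against 41.65 to 72.4 CPM (-0.61 ± 0.16, adjusted p = 0.0281), a call that was lost without any of AND r1, AND r2, MHCI-/- r1, MHCI-/- r2, MHCII-/- r2 and OT-II r1 (adjusted p = 0.0502 to 0.0744), with gate thresholds per lane (adjusted p = 0.107) and without the family covariate (adjusted p = 0.0731). Ikzf2 was 57.8 and 21.6 CPM in AND, 29.6 and 228 CPM in OT-II and 102 and 89.5 CPM in MHCI-/- mice, and 212 and 258, 198 and 273, and 100.4 and 140 CPM in F5, OT-I and MHCII-/- mice. OT-II r2 stood apart from the other CD4-fated mice, and the difference of -1.27 ± 0.41 was not called (adjusted p = 0.0629). It was called without OT-II r2 (-1.61, adjusted p = 0.0239), with the replicate number as a block (-1.30, adjusted p = 0.0298) and without the low-count filter (-1.31, adjusted p = 5.49e-11). With the cycling-like, Treg-like, NKT-like, γδ T-like and myeloid-like clusters left out it was -2.33 (adjusted p = 0.00451). Ikzf1 differed by 0.26 (adjusted p = 0.337).

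**Figure D2:**
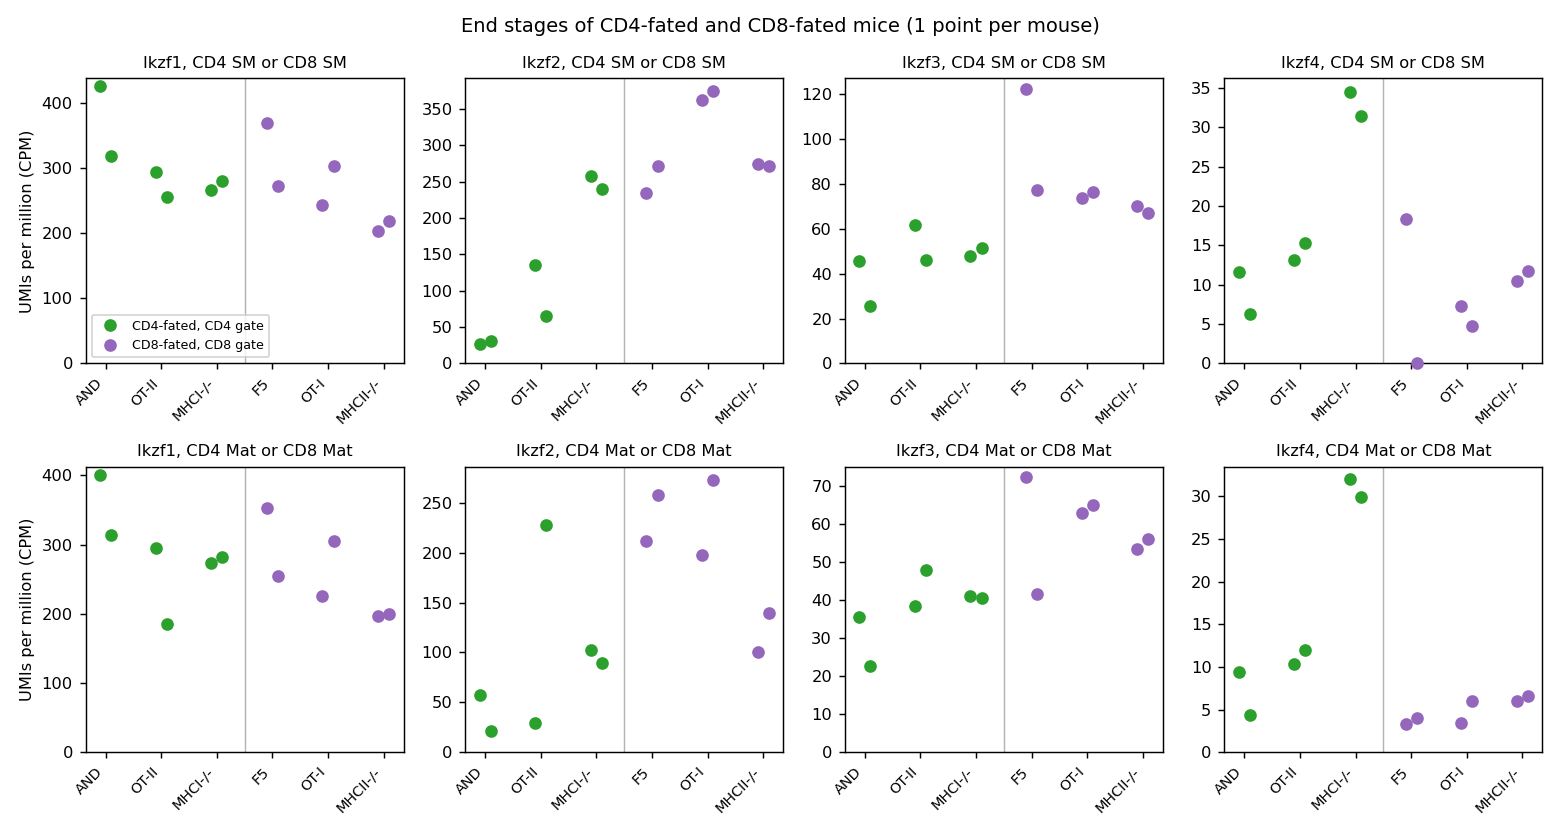
Level of the 4 genes (CPM, linear axes from 0) at the semimature (SM) and mature (Mat) stages in the 6 lineage-restricted genotypes, 1 point per mouse. Green marks the CD4 gate of CD4-fated and purple the CD8 gate of CD8-fated mice; at SM, Ikzf2 ran from 26.4 CPM in AND r1 to 375 CPM in OT-I r2, with both MHC-deficient genotypes between 240 and 275 CPM.

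A few cells of OT-I mice fell into the CD4 SM gate, which is not their main fate, 256 in both mice together. Their Ikzf2 was 390 and 539 CPM and their Ikzf4 58.9 and 36.3 CPM, against 7.29 and 4.80 CPM of Ikzf4 in the CD8 SM cells of the same mice. As a description of 2 mice, Ikzf2 in these cells lay above the wild-type CD4 SM range, and Ikzf4 lay above it in r1 and within it in r2.

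Treg cells were approached by antibody, taking CD4+CD8-TCRβ+ cells high in both CD25 and GITR against cells low in both. Ikzf2 and Ikzf4 rose together, Ikzf1 fell and Ikzf3 was not called, with 5.27% of all genes called. The test rested on wild-type r2, r3 and r5 with 36, 32 and 20 CD25+GITR+ cells, against 647, 345 and 633 CD25-GITR- cells. Foxp3 RNA, which the gate did not use, was 268, 226 and 300 CPM against 2.00, 2.76 and 2.87 CPM (log2 difference 6.59, adjusted p = 1.78e-66). Among other cell types, Zbtb16, Klrb1c and Tbx21 of NKT cells and Csf1r, Tyrobp and Fcer1g of myeloid cells were at 0 in the CD25+GITR+ cells of these mice. Over the whole lists, the 5 NKT markers nonetheless summed to 85.8 to 118 CPM in CD25+GITR+ against 4.97 to 45.9 CPM in CD25-GITR- cells, all of it in the former from Il2rb, which is also on the Treg list, and Xcl1. The 5 myeloid markers summed to 80.4 to 129 CPM against 70.7 to 82.8 CPM, in the CD25+GITR+ cells from Lyz2 and Cst3, and the part of such cells in the differences was not tested. Likewise not tested was that of the 5 negative selection markers, which summed to 232 to 493 CPM against 90.6 to 253 CPM, and of the 5 DN markers (204 to 1220 CPM against 39.7 to 79.1 CPM), which include Il2ra, the gene of the gate's CD25. The 6 signaled DP markers went the other way, at 536 to 949 CPM in CD25+GITR+ against 1130 to 1290 CPM in CD25-GITR- cells, and their part was not tested either. The CD25 threshold of r2 and r3, of experiment 2, was low, at 1.0 on the log2 scale against 5.36 for r5.

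Ikzf2 had 1540, 839 and 2080 CPM in CD25+GITR+ cells and 93.1, 39.2 and 178 CPM in CD25-GITR- cells. All positive sums lay far above all negative sums, by 3.84 ± 0.17 (14.3-fold, adjusted p = 4.75e-107, edgeR's quasi-likelihood test over 7435 genes). With so few mice, this test takes its spread largely from all genes together. The very small p of Ikzf2, Ikzf4 and Foxp3 therefore do not measure the spread of each gene between mice. Ikzf4 had 172, 213 and 322 CPM against 30.6, 22.6 and 35.5 CPM, likewise without overlap (2.78 ± 0.26, 6.85-fold, adjusted p = 6.1e-23). Ikzf1 fell from 304, 308 and 283 CPM to 145, 200 and 215 CPM (-0.87 ± 0.22, 0.547-fold, adjusted p = 0.00317), again without overlap. That call was lost with DESeq2 (-0.82, adjusted p = 0.216), without r2 (-0.74, adjusted p = 0.233) and without r3 (-0.99, adjusted p = 0.0864). Ikzf3 had 53.6, 71.0 and 64.4 CPM against 52.6, 40.9 and 72.2 CPM (0.18, adjusted p = 0.878).

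The mice outside the test gave like values. In wild-type r1 and r4, with 12 and 17 CD25+GITR+ cells, Ikzf2 was 1300 and 1850 CPM against 56.4 and 110 CPM. In the MHCI-/- mice, with 32 and 40 such cells, Ikzf2 was 1440 and 1470 CPM against 95.6 and 87.9 CPM, and Ikzf4 was 179 and 180 CPM against 25.5 and 23.9 CPM. Ikzf1 was lower in the CD25+GITR+ cells of each of these 4 mice, for example 129 and 104 CPM against 279 and 284 CPM in the MHCI-/- mice. In this comparison 5.27% of all genes were called, beside which the list counts that follow stand. Of the 11 Treg genes on the list, all 11 were higher in CD25+GITR+ cells (median log2 difference 3.29, against -0.12 over all genes). The list includes Il2ra (7.07) and Tnfrsf18, which encode the CD25 and GITR used for the gate, so for these the gate partly fixes the result. Also higher were Tnfrsf4 (3.22) and Ctla4 (4.58), a checkpoint receptor. Of 7 negative selection genes 2 were higher, Tnfrsf9 (2.78), which is also on the Treg list, and Cd200 (1.5). Of the NuRD genes edgeR called 0 of 14 (2 at an unadjusted p under 0.05).

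**Figure D3:**
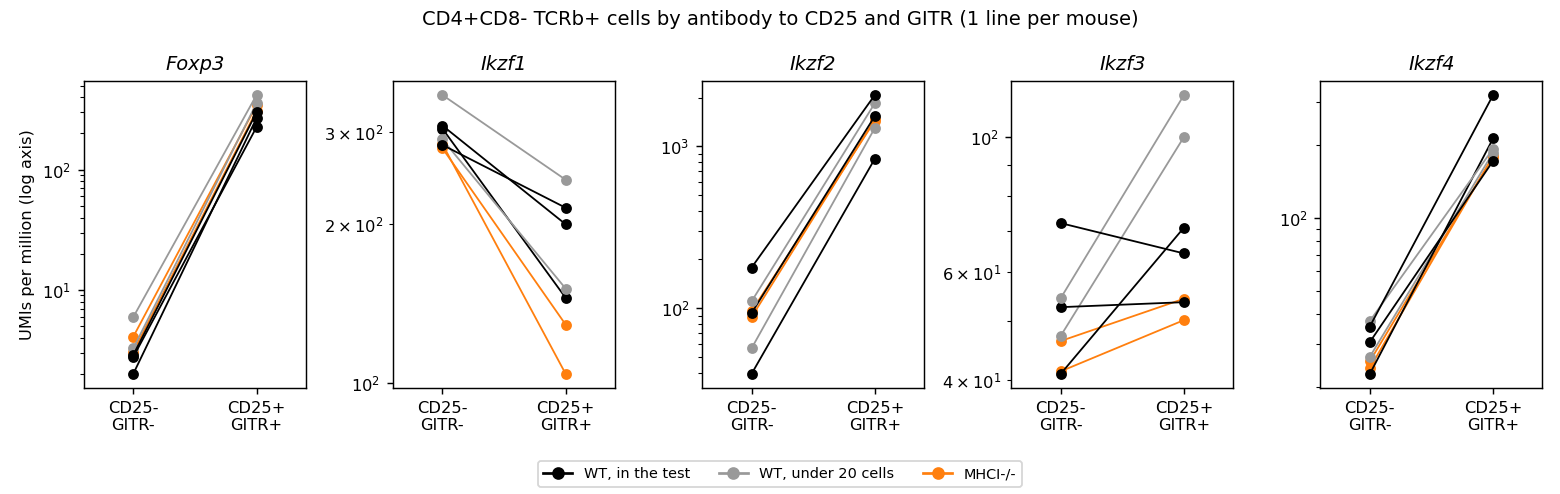
Foxp3 and the 4 Ikaros family genes (CPM, log axis) in CD25-GITR- and CD25+GITR+ CD4 cells, 1 line per mouse: black for the 3 wild-type mice in the test, grey for wild-type mice with under 20 positive cells, orange for MHCI-/- mice. Ikzf2 and Ikzf4 rise along every line and Ikzf1 falls along every line.

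PD-1 antibody marks a wave of negative selection among DP cells, and the 10% of DP2 cells of each mouse highest in PD-1 were compared with the lowest 50%. Ikzf2 was the only member called, where 0.739% of all genes were. In wild-type r2, r3, r4 and r5 it had 1540, 1130, 434 and 299 CPM in PD-1 high and 754, 729, 280 and 210 CPM in PD-1 low cells. It was higher in the PD-1 high cells of 4 of 4 mice, while the spread between sorted and unsorted mice exceeded that difference (0.74 ± 0.10, 1.67-fold, adjusted p = 0.000811, edgeR's quasi-likelihood test). The call was lost without r4 (adjusted p = 0.0885). It was made in the sorted r2 and r3 (0.85, adjusted p = 0.00537) and in the unsorted r4 and r5 taken alone (0.61, adjusted p = 0.000171). Ikzf3 had 202, 229, 135 and 159 CPM against 92.9, 65.6, 116 and 144 CPM, higher in 4 of 4 mice but not called (0.53 ± 0.17, adjusted p = 0.181), although it was in the sorted r2 and r3 alone (1.34, adjusted p = 0.000313). With so few mice, the tests in r2 and r3 or in r4 and r5 alone take their spread largely from all genes together. Their small p do not measure the spread of each gene between mice. Ikzf1 differed by 0.02 (adjusted p = 0.976), and Ikzf4 was too low to be tested. Stage markers moved with the gate, the 6 quiescent DP markers summing to 134 to 4220 CPM in PD-1 high and 578 to 4920 CPM in PD-1 low cells and the 6 signaled DP markers to 665 to 4100 CPM and 717 to 2890 CPM, and their part in the Ikzf2 difference was not tested. Of 7 negative selection genes 3 were higher, Pdcd1 (1.98), which encodes PD-1, Nr4a1 (1.08) and Nr4a3 (1.42), both induced by receptor signals.

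Across genotypes, the Ikzf2 difference by PD-1 was seen in the mice with a diverse repertoire, but the gate took the same share of cells from every mouse whatever its level of PD-1. Pdcd1 RNA was 131 to 280 CPM in PD-1 high and 34.5 to 57.7 CPM in PD-1 low cells of the MHC-deficient mice. In wild-type mice it was 176 against 40.2 CPM in r2 and 258 against 50.5 CPM in r3. It was low in the unsorted mice, at 22.6 against 8.89 CPM in r4 and 19.3 against 3.9 CPM in r5. In TCRtg mice it was 68.1 against 14.8 CPM in OT-I r1, 15.8 against 11.2 CPM in OT-I r2, 10.9 against 0.993 CPM in OT-II r1, 0 against 0 CPM in OT-II r2 and 14.5 against 18.0 CPM in F5 r2. In OT-II r2, F5 r2 and OT-I r2, with 0 to 2 Pdcd1 UMIs in the PD-1 high cells, the RNA therefore did not bear out the name of the gate. In MHCI-/- mice Ikzf2 was 1020 and 1390 CPM in PD-1 high against 832 and 708 CPM in PD-1 low cells, and in MHCII-/- mice 1370 and 1320 CPM against 452 and 419 CPM. In OT-I mice it was 380 and 340 CPM against 320 and 372 CPM, in OT-II mice 246 and 103 CPM against 219 and 181 CPM, and in F5 r2 349 CPM against 379 CPM. The 4 MHC-deficient mice were all higher in PD-1 high cells, and the 5 TCRtg mice went either way. The AND mice, F5 r1 and wild-type r1 had under 20 PD-1 high cells. The sort and the receptor repertoire could not be separated among the 12 lineage-restricted mice, since the MHC-deficient mice alone were sorted.

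**Figure D4:**
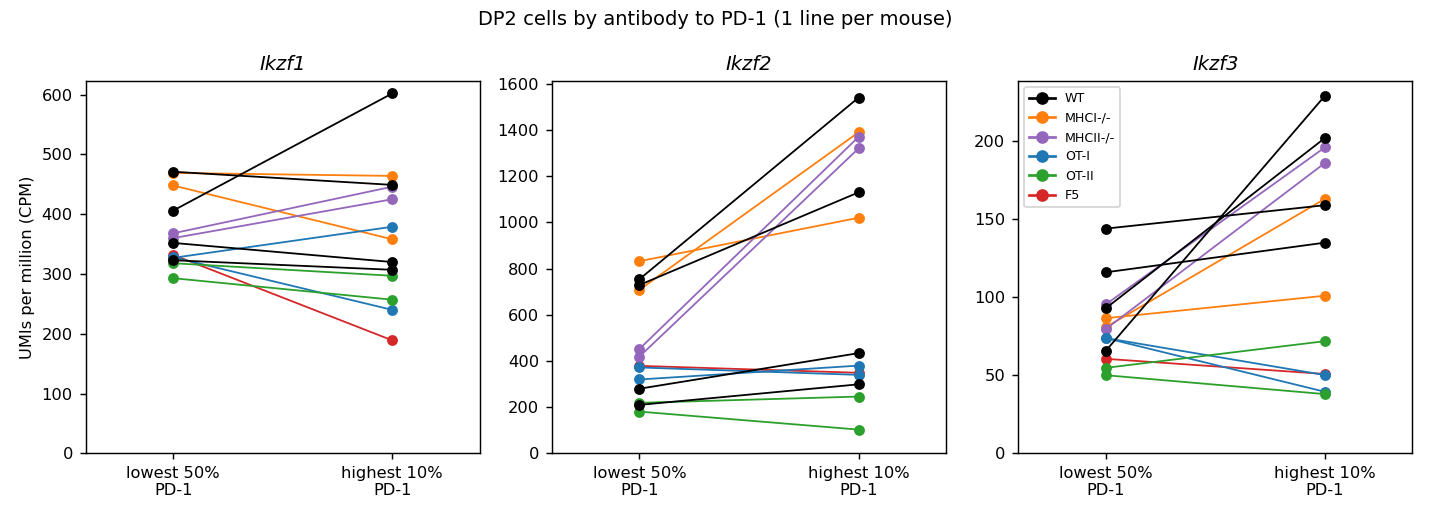
Ikzf1, Ikzf2 and Ikzf3 (CPM) in the lowest 50% and the highest 10% of DP2 cells by PD-1 antibody, 1 line per mouse colored by genotype. The Ikzf2 lines of the wild-type, MHCI-/- and MHCII-/- mice rise, and those of the 5 TCRtg mice lie between 103 and 380 CPM with no common direction.

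Clusters formed on RNA without the 4 genes showed where each member was highest, as a description without a test. Over the wild-type mice with at least 20 cells, Ikzf2 averaged 1330 CPM (range 1140 to 1630) in Treg-like, 947 CPM (490 to 1350) in NKT-like, 669 CPM (553 to 825) in signaled DP-like and 601 CPM (586 to 626) in negative selection-like cells. It averaged 289 CPM in CD8 SP-like, 104 CPM in mature SP-like and 67.0 CPM (55.5 to 75.8) in the larger of the 2 quiescent DP-like clusters. In the other, which only r5 filled with at least 20 cells among the wild-type mice, it was 96.1 CPM, so that both lay below the signaled DP-like range. Ikzf4 was highest in Treg-like cells, at 209 CPM (166 to 252), followed among the named clusters by mature SP-like (38.1), negative selection-like (27.6) and CD8 SP-like cells (22.3 CPM), and it was 5.26 CPM in NKT-like and 1.51 CPM in signaled DP-like cells. High Ikzf2 came with high Ikzf4 in Treg-like cells and without it in NKT-like and signaled DP-like cells. Ikzf1 was highest in signaled DP-like cells, at 516 CPM (460 to 570), and low in Treg-like cells, at 172 CPM (144 to 208). Ikzf3 was 166 CPM in the quiescent DP-like cluster of r5, 140 CPM (89.6 to 194) in NKT-like, 117 CPM (95.5 to 140) in the larger quiescent DP-like cluster, 102 CPM (78.4 to 144) in signaled DP-like and 37.7 CPM in DN-like cells. Unlike the gated step from DP1 to DP2, the signaled DP-like mean of Ikzf3 lay below that of both quiescent DP-like clusters, its range overlapping that of the larger one. The NKT-like cluster was led by Nrgn, S100a6 and S100a4, with MHCII-/- mice giving 51.4% of its cells. Of the 5 NKT markers, only 1 (Xcl1) was among its leading genes. It also held 36 and 57 cells of the MHCI-/- mice, which lack B2m, at 1304 and 1890 CPM of Ikzf2. Its name therefore rests on RNA markers alone and was not checked by receptor. The γδ T-like cluster, 58.3% from OT-I and 1.08% from wild-type mice, also held 434 and 45 cells of the AND mice, which lack Rag1, so its name rests on RNA markers alone. It had 542 CPM of Ikzf2 (390 to 697) and 40.7 CPM of Ikzf3 over 6 mice.

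**Figure D5:**
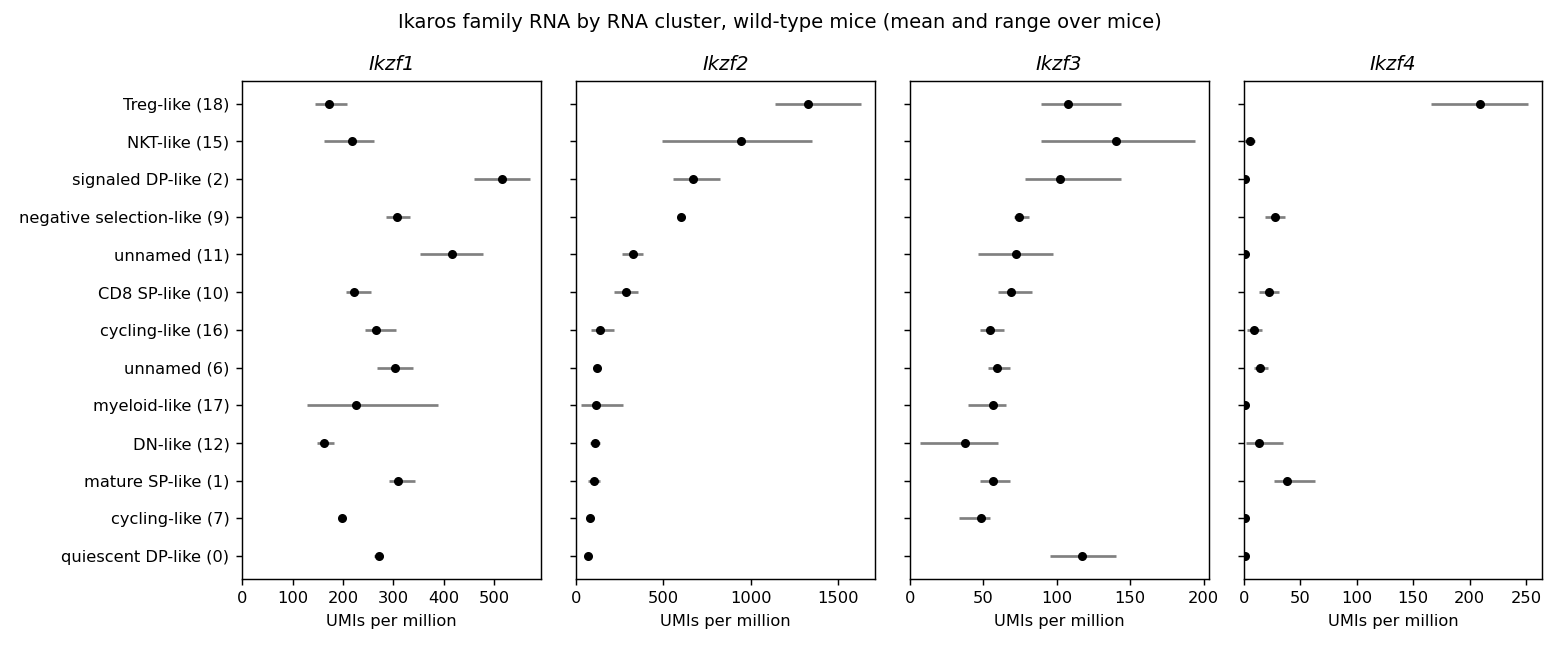
Mean level (CPM) of the 4 genes in RNA clusters of wild-type mice, with bars from the lowest to the highest mouse, for clusters with at least 20 cells in several mice. Ikzf2 and Ikzf4 are highest in the Treg-like cluster (1330 and 209 CPM) and Ikzf1 in the signaled DP-like cluster (516 CPM).

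A summed level can rise because more cells hold the transcript or because each holds more. After thinning each cell to 1000 UMIs, Ikzf2 was detected in 7.17 ± 5.70% of CD4 SM cells of CD4-fated and 23.4 ± 6.19% of CD8 SM cells of CD8-fated mice (SD, n = 6 each, exact permutation test, two-sided, p = 0.00649, adjusted p = 0.0346 over 16 comparisons). At the mature stage the shares were 3.91 ± 2.04% and 15.1 ± 4.11% (exact permutation p = 0.00216, adjusted p = 0.0346), the smallest p that 6 against 6 mice allow. As a rough background, 5.21% of myeloid-like cells, from a lineage not known for Helios, had an Ikzf2 UMI, and the CD4 Mat share lay below that. This cluster was mixed, led by S100a9, Cd74 and Ngp with Hbb-bt among its leading genes, and its Ikzf2 ran from 7.22 to 346 CPM over 11 mice. Ikzf3 was detected in 4.48 ± 0.973% and 8.63 ± 3.24% of SM cells (exact permutation, adjusted p = 0.0346), against 4.03% of myeloid-like cells. Of 13 alternatives each, 3 kept the call at SM for Ikzf2 and 3 for Ikzf3, and 6 kept that of Ikzf2 at Mat. The others each left out 1 mouse, at an adjusted p of up to 0.0693 by exact permutation. With 1 mouse fewer the smallest p, adjusted over 16 comparisons, can itself miss the threshold, so these losses say nothing of stability. The differences then ranged from -18.3 to -15.2 points (Ikzf2) and -4.84 to -3.25 points (Ikzf3) at SM and from -12.3 to -10.3 points (Ikzf2) at Mat. Thinned to 2000 UMIs, so that more is detected, they were -29.2, -6.39 and -19.8 points, all called. Without thinning, the myeloid-like shares were 13.6% for Ikzf2 and 14.3% for Ikzf3 at a median of 3593 UMIs per cell. In Treg-like cells, Ikzf2 was detected in 66.4% and Ikzf4 in 18.4% of thinned cells (90.7% and 57.1% unthinned, median 4973 UMIs), and in wild-type DP1 cells Ikzf4 in 0.197%.

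Among relatives and partners, Ikzf5, the family member Pegasus, which Fgfr2 overlaps on the same strand, was lower in CD4+CD8lo than in DP2 cells (-0.36 ± 0.10, adjusted p = 0.00563) and in CD8 SM than in DP3 cells (-0.45, adjusted p = 0.0312) and was called in no other stage step or lineage comparison. Of 14 NuRD genes, 1 was higher and 5 were lower in DP2 than in DP1 (median -0.20 against 0.03 over all genes), a step at which 27.6% of all genes were called. The gene that rose was Chd3, a helicase subunit (1.22 ± 0.19, adjusted p = 6.63e-06), and those that fell included Cdk2ap1 (-0.68), the histone-binding Rbbp4 (-0.40) and the deacetylase Hdac1 (-0.38). Chd3 rose again to CD4+CD8lo (1.24), where it was the only NuRD gene called beside 27.8% of all genes, and to CD4 SM (0.78), where 2 NuRD genes were lower and 13.7% of all genes were called. It was higher in CD4 Mat than in CD8 Mat (1.08), with 5 NuRD genes lower there, among them Mbd3 (-0.49) and Mta3 (-0.76), where 12.3% of all genes were called. Between fates Chd3 was higher in CD4-fated cells at SM (0.94) and Mat (0.90), with 4 and 3 of the 14 lower, Rbbp7 (-0.63 and -0.67) and Gatad2a (-0.69 and -0.75) in both, beside 9.49% and 10.0% of all genes called. Of the other corepressors, Sap30 fell from DP1 to DP2 (-0.73) and from CD4+CD8lo to CD4 SM (-0.97) and was lower in CD4-fated cells at Mat (-1.50). The 5 genes of the cereblon ubiquitin ligase, through which thalidomide derivatives degrade Ikaros and Aiolos, gave 0 calls in every comparison in edgeR's fits (0 to 2 of them at an unadjusted p under 0.05, 2 from DP1 to DP2).

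Genes linked to Ikaros in lymphocytes split by stage. Of 8, 1 rose and 5 fell from DP1 to DP2, Il7r, which encodes the CD127 used for the stages, rising (1.70) and Dntt (-1.89), Rag1 (-2.14) and Ptcra (-1.51), genes of receptor rearrangement and the pre-TCR, falling, beside 27.6% of all genes called. From DP2 to CD4+CD8lo, 3 rose and 4 fell, beside 27.8% of all genes. Among the 3 was Il7r (4.14), a difference that the gates partly fix, since DP1 and DP2 cells were taken as CD127-. All 7 negative selection genes rose from DP1 to DP2 (median 3.01), among them Gadd45b (3.85), Nr4a3 (4.22), Nr4a1 (3.01) and Bcl2l11 (1.95), which encodes the death factor BIM, and 3 of 7 fell from CD4+CD8lo to CD4 SM, where 13.7% of all genes were called. Of 10 Treg genes tested, 6 rose and 1 fell from DP1 to DP2, 9 rose from DP2 to CD4+CD8lo (median 1.91) and 6 were higher and 1 lower in CD4 Mat than in CD8 Mat, Tnfrsf4 (4.79) and Foxp3 (4.10) among the higher. The shares over all genes at these 3 contrasts were 27.6%, 27.8% and 12.3%.

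Over the 40 sums of wild-type mice and stages, the genes most like each member were given by Pearson's r of log2 CPM among 5805 genes, as a description over sums that share mice and libraries. For Ikzf1 they were Lrp10 (r = 0.86), Cd84 (0.81) and Lmbrd1 (0.80), and for Ikzf2 Basp1 (0.79), Hivep3 (0.72) and Bcl2l11 (0.71). For Ikzf3 they were Prrt1 (0.78), Mettl6 (0.77) and 2700081O15Rik (0.77), and the first 2 for Ikzf4 were Irf9 and Skil (0.92 each). Among the members themselves, r was 0.54 for Ikzf2 with Ikzf3, 0.40 for Ikzf1 with Ikzf2, 0.30 for Ikzf1 with Ikzf3, 0.01 for Ikzf2 with Ikzf4, -0.20 for Ikzf1 with Ikzf4 and -0.33 for Ikzf3 with Ikzf4.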

How the data were processed

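CITE-seq RNA and antibody libraries (10x 3' chemistry) were counted by the authors with Cell Ranger 3.1.0 against mm10 (GRCm38), as the submitters' processing notes give it, while some matrix headers name an earlier release. The deposited values were raw UMI counts per gene and per antibody, not normalized. Cells with at most 15% mitochondrial UMIs, at least 200 genes, 1000 to 10000 antibody UMIs and at least 70 of 111 antibodies were kept, 72054 of 85389 barcodes. Doublets were called at 0.8% per 1000 barcodes of a lane (2906 cells, 4.03%) and left out, leaving 69148 cells. Antibody counts were scaled to 10000 per cell, log2-transformed and gated at Otsu thresholds per experiment, so the gates are rebuilt and may differ from the study's own; 56367 cells (81.5%) fell into the 8 stages, and 74.7% were gated alike with thresholds per lane. The CD25 and GITR gate lay 2 median absolute deviations, each set to at least 0.5, above the median of both antibodies per experiment; in experiment 2 this minimum set the CD25 threshold, at 1.0, so any CD25 count passed. Leiden clusters (2000 variable genes, 30 principal components, 20 neighbors, resolution 1) were formed on RNA without the 4 genes; 14 of 19 were named from marker lists, as like a cell type.

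RNA counts were summed per mouse and gate with at least 20 cells, both lanes of a mouse together, and tested with edgeR 4.0.16 (quasi-likelihood test, TMM scaling, low-count filter, Benjamini-Hochberg adjustment over all genes tested, called at 0.05) in R 4.3.3, with mouse as a block for stages and antibody gates and family of genotypes as a covariate between fates. The SE is the size of the log2 difference divided by the square root of F. Fitted differences are moderated and need not equal the ratio of mean CPM. Shares of cells were compared after thinning to 1000 UMIs, by exact permutation over mice. Clustering used Python 3.11.15, scikit-learn 1.9.0 and leidenalg 0.10.2. On simulated counts the tests recovered 79% of 2-fold and 100% of 4-fold changes for the DP1 to DP2 step (9729 genes), 82% and 88% between fates in DP2 (7953 genes), and 10% and 64% for the CD25 and GITR gate (7467 genes), with 5.3%, 2.3% and 3.9% false calls. The simulation had a dispersion of 0.05 and no difference between mice, changed only genes averaging over 20 UMIs, and fitted DP1 and DP2 without the other stages. The rates therefore do not cover low genes such as Ikzf4 or the differences between sorted and unsorted mice. DESeq2 1.42.0, no filter, library size scaling, doublets kept, thresholds per lane, at least 50 cells, other mice, blocks and each mouse left out were the alternatives. Leaving out other clusters, the sorted and the unsorted mice alone, and the receptor and sort differences were chosen after seeing the data. The other clusters left out were the cycling-like, Treg-like, NKT-like, γδ T-like and myeloid-like ones, and all further clusters were kept. The members and lists were chosen with earlier results of these data known. Named were the 4 members, at most 4 genes of a list with the smallest adjusted p in a contrast, and the 3 genes most like each member with a mean of at least 20 CPM; 1 of these genes is not reported here.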

Additional observations from a re-analysis of the deposited data

Results flagged for a closer look

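In 6 of 76 groups of 4 to 10 mice examined, 1 mouse lay farther from the others than a gap test at the 95% level allows, where chance gives about 1 in 20 groups. Ikzf1 was 328 CPM in wild-type r1 in CD4+CD8lo cells, against 292 to 302 CPM in the other wild-type mice, and 356 CPM in the same mouse in CD4 SM cells, against 276 to 295 CPM. Ikzf1 was also 439 CPM in AND r1 in CD4+CD8lo cells, against 259 to 325 CPM in the other CD4-fated mice, and 426 CPM in CD4 SM cells, against 255 to 319 CPM. Ikzf3 was 122 CPM in F5 r1 in CD8 SM cells, against 66.8 to 77.2 CPM in the other CD8-fated mice. Wild-type r1, AND r1 and F5 r1 were the 3 mice of experiment 1. Ikzf3 was 99.6 CPM in wild-type r5 in CD4+CD8lo cells, against 52.3 to 64.7 CPM.

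The lineage difference of Ikzf2 at the semimature stage differed between the 3 pairs of genotypes (adjusted p = 0.0175, edgeR's quasi-likelihood test of family by lineage), the MHC-deficient pair showing the smallest difference.

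The step of Ikzf2 from DP2 to CD4+CD8lo differed between sorted and unsorted wild-type mice by -1.95 ± 0.24 on the log2 scale (adjusted p = 2.57e-07, edgeR's quasi-likelihood test of sort by stage, with 9.25% of all genes called). It ranged from -2.24 to -1.70 under 7 alternatives and was called in all 7. The step of Ikzf3 from DP3 to CD8 SM differed by 1.01 ± 0.29 (adjusted p = 0.039, 3.08% of genes called), and this call was lost without any of the 5 mice (0.88 to 1.27 over the alternatives). Both steps were picked after their values were seen. Sorted and unsorted mice also differ in experiment, so the sort and the experiment cannot be told apart for r4 and r5.

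The difference between PD-1 high and PD-1 low DP2 cells was set against the receptor repertoire, a grouping chosen after the values were seen. Ikzf2 was higher in PD-1 high cells in 8 of 8 mice with a diverse repertoire (mean log2 difference 0.91 ± 0.50, SD) and in 2 of 5 TCRtg mice (-0.13 ± 0.42). The difference between them was 1.05 (exact permutation test, two-sided, p = 0.00155, adjusted p = 0.00465 over 3 genes). Ikzf3 was higher in 8 of 8 and 1 of 5 mice (0.85 ± 0.60 against -0.34 ± 0.48, exact permutation p = 0.00622, adjusted p = 0.00933). The gate took the highest 10% of every mouse, and Pdcd1 RNA was 0 against 0 CPM in OT-II r2, 14.5 against 18.0 CPM in F5 r2 and 15.8 against 11.2 CPM in OT-I r2, so the comparison is not one of like PD-1 levels. Among the mice with a diverse repertoire, Pdcd1 RNA was also low in wild-type r4 (22.6 against 8.89 CPM) and r5 (19.3 against 3.9 CPM). For Ikzf1 the difference was 0.33 (exact permutation, adjusted p = 0.112). Of the 8 mice with a diverse repertoire all but wild-type r4 and r5 were sorted and none of the TCRtg mice was, and the part of the sort was not tested.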

How the results depend on the processing

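Of 60 member values, 22 were called, in comparisons where 0.0% to 27.8% of all genes were called, and 9 of these kept their call under every alternative run. The 9 were Ikzf1 and Ikzf4 from DP1 to DP2, Ikzf3 and Ikzf4 from DP2 to CD4+CD8lo, Ikzf4 from CD4+CD8lo to CD4 SM, Ikzf3 at SM and Ikzf4 at Mat between fates, and Ikzf2 and Ikzf4 in CD25+GITR+ cells. Of 1006 alternative values, 885 kept direction and side of the threshold, 47 lost and 42 gained a call and 32 turned direction. None of the 22 called values turned, and the causes were not tested unless fewer mice or cells entered.

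The number of members called was 2 from DP1 to DP2 in the 12 lineage-restricted mice. From CD4+CD8lo to CD4 SM it was 2 without the filter, in the sorted and in the unsorted mice. From CD4 SM to CD4 Mat it was 1 without the filter, without other clusters and in the sorted mice. From CD4+CD8lo to DP3 it was 1 with DESeq2, without the filter or without other clusters, and 2 in the unsorted mice. From DP3 to CD8 SM it was 2 without the filter, with library size scaling, doublets kept, thresholds per lane, in the sorted and in the unsorted mice, and 0 in the 12 other mice. From CD8 SM to CD8 Mat it was 1 with DESeq2, without other clusters and in the unsorted mice, 0 in the 12 other mice, and 0 to 2 with a mouse left out. Between CD4 Mat and CD8 Mat it was 0 in the unsorted mice and 1 to 3 with a mouse left out. Between fates it was 1 in CD4+CD8lo with DESeq2, without the filter and with thresholds per lane, 1 at SM without the family covariate, 1 at Mat without it and with thresholds per lane, and 1 to 3 at Mat with a mouse left out. For PD-1 it was 2 in the 12 other mice and in the sorted mice, and 0 to 1 with a mouse left out. The number of all genes called moved between these settings as well, and these counts of members were not set against it.

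Values that turned direction were Ikzf2 from DP2 to CD4+CD8lo in the unsorted mice (0.60), Ikzf1 (-0.02) and Ikzf3 (-0.15) from CD4+CD8lo to CD4 SM and Ikzf1 from CD4 SM to CD4 Mat (-0.04) with library size scaling, Ikzf3 in the unsorted mice at those steps (-0.11 and 0.02) and from DP3 to CD8 SM (-0.29), Ikzf1 from CD4+CD8lo to DP3 in the 12 other mice (-0.04), Ikzf2 between fates in DP2 without the family covariate (0.02), and in DP3 Ikzf1 without the filter (-0.03) and Ikzf2 with library size scaling (0.03) or without other clusters (0.01). Ikzf1 by PD-1 turned without the filter (-0.06), with doublets kept (-0.01), in the highest 5% (-0.01), in the 12 other mice (-0.05) and in the unsorted mice (-0.07). The family by lineage test of Ikzf2 in CD4+CD8lo reached 0.0256 without other clusters, with 1 member called. The Ikzf3 share at Mat differed by -4.86 points when thinned to 2000 UMIs (adjusted p = 0.026), and the Ikzf1 difference by receptor was 0.39 in the highest 5% and 0.47 without other clusters.

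With each mouse left out in turn, Ikzf3 ranged from -0.08 to 0.08 from CD4+CD8lo to CD4 SM, Ikzf4 from -0.08 to 0.04 from CD4 SM to CD4 Mat and Ikzf3 from -0.26 to 0.0 between CD4 Mat and CD8 Mat. Between fates Ikzf1 ranged from -0.14 to 0.06 in DP1, -0.01 to 0.14 in DP2 and -0.04 to 0.11 in DP3, and Ikzf2 from -0.67 to 0.49 in DP3. The adjusted p of family by lineage for Ikzf2 ranged from 0.00475 to 1.0 in DP3 and 0.00202 to 0.159 at SM, each with 0 to 1 members called. Ikzf3 in CD25+GITR+ cells ranged from -0.16 to 0.37 and Ikzf1 by PD-1 from -0.07 to 0.08. Differences in shares, in points, ranged from -2.08 to 0.703 (Ikzf1) and -2.31 to -1.47 (Ikzf3) in DP1, -4.19 to 1.19 (Ikzf2) in DP2, -18.3 to -15.2 (Ikzf2) and -4.84 to -3.25 (Ikzf3) at SM, and -12.3 to -10.3 (Ikzf2) and 1.2 to 1.98 (Ikzf4) at Mat.

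Same-numbered AND and F5 mice also shared an experiment (experiment 1 for r1, experiment 2 for r2), their deviations correlating at 0.07 to 0.27. OT-II with OT-I mice correlated at 0.48 to 0.78 and MHCI-/- with MHCII-/- mice at -0.05 to 0.40, each set within 1 experiment, so a shared number did not mark a shared batch throughout. With the replicate block between fates, 1 member was called in CD4+CD8lo (Ikzf2, -0.88, adjusted p = 0.0438), Ikzf2 at Mat passed (-1.30, adjusted p = 0.0298) and Ikzf2 in DP3 was 0.24. Without the mouse as replicate block, Ikzf3 from CD4+CD8lo to CD4 SM was -0.03, and 0 members were called from CD8 SM to CD8 Mat and 1 between CD4 Mat and CD8 Mat.

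The number of all genes called moved widely, for example from 2596 to between 732 and 4254 from DP1 to DP2, from 180 to between 9 and 616 from CD4+CD8lo to DP3, from 160 to between 9 and 335 from CD8 SM to CD8 Mat, from 856 to between 351 and 1612 at SM, from 392 to between 140 and 628 in CD25+GITR+ cells and from 53 to between 3 and 733 for PD-1. Library size scaling moved the median of all genes by -0.16 from CD4+CD8lo to CD4 SM, -0.20 from DP3 to CD8 SM and -0.11 from DP2 to CD4+CD8lo and from CD4 SM to CD4 Mat. The stricter CD25 and GITR threshold left 1 mouse with 20 cells and was not fitted at that minimum, nor was DP3 between fates at 50 cells. Depth limits Ikzf4 in DP1, DP2 and DP3, which rest on 40, 59 and 20 UMIs.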
